A study of Mus musculus with 20 samples.

Results

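The genes of cyclic AMP (cAMP) signalling described here are those named as phosphodiesterases (Pde), adenylyl cyclases (Adcy), subunits of protein kinase A (Prkac and Prkar) or RAPGEF guanine nucleotide exchange factors, chosen by symbol alone from RNA sequencing of mouse hippocampus. They number 41 of the 13256 genes in the deposited tables: 20 Pde genes, 8 cyclases, 6 protein kinase A genes and 7 RAPGEF genes. All 41 matching symbols were listed for all 20 libraries and reached 0.5 FPKM (fragments scaled to transcript length and library total) in at least 5 libraries, so none was dropped by the rule on low values. The libraries fall into 4 groups of 5: female Fmr1 KO, female C57 wild type (WT), male Fmr1 KO and male C57 WT. Sample titles call the mutants KO and the genotype field calls them an Fmr1 knockdown. The allele and the ages of the mice are not given. Nothing says that the 5 libraries of a group come from separate animals, so p-values then reflect only how far these libraries spread, which may be technical. All groups had the same light cycle and free food and water, and no treatment is named.

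Cells make cAMP from ATP with adenylyl cyclases, which receptors coupled to Gs switch on and receptors coupled to Gi switch off. cAMP frees the catalytic subunits of protein kinase A (PKA) from their regulatory subunits and also acts directly on the Epac exchange factors, Rapgef3 and Rapgef4, which activate the small GTPase Rap. Phosphodiesterases end the signal by breaking cAMP down. In the hippocampus this pathway takes part in long-term potentiation and memory through PKA and the transcription factor CREB. Fmr1 encodes FMRP, the RNA-binding protein missing in fragile X syndrome, in which lower cAMP has been described in patients' cells, and inhibitors of PDE2A and PDE4D have been tried in Fmr1 mice. Some members only share the name: Pde12 is a mitochondrial enzyme that removes adenosines from RNA tails, Pde6d carries prenylated proteins, Pde4dip (myomegalin) is a centrosome and Golgi scaffold, and the RAPGEF genes other than Rapgef3 and Rapgef4 are not held to be direct cAMP sensors of the Epac kind.

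CREB binds the cAMP response element (CRE), so the start regions of the genes the results turn on were searched for it. RefSeq (GRCm38.p6) gives 73 windows for 35 of the 41 members, each running from 250 bases before a start site to 50 after it, 300 bases in all. Pde8b and Rapgef5 are shown because they passed a test below. Pde8a, the closest relative of Pde8b, and Prkar1a, the member with the highest level, were added after their values were seen. Of 5 windows of Pde8b, the one farthest upstream and the one that holds a match are printed, and of 6 windows of Prkar1a the first of the 2 that hold the full element, so these were picked with the matches known. Pde8a has 1 window and Rapgef5 has 2, all printed. Pde8b lies on the minus strand at chr13:95250287-95250586 (upstream start) and chr13:95223001-95223300 (inner start). Pde8a lies on the plus strand at chr7:81213015-81213314, Prkar1a on the plus strand at chr11:109650612-109650911, and Rapgef5 on the plus strand at chr12:117516276-117516575 (upstream start) and chr12:117533678-117533977 (inner start). Capitals mark the full element TGACGTCA and its short form TGACG, which reads CGTCA on the other strand, and the full element contains the short form on both strands.
Pde8b upstream window: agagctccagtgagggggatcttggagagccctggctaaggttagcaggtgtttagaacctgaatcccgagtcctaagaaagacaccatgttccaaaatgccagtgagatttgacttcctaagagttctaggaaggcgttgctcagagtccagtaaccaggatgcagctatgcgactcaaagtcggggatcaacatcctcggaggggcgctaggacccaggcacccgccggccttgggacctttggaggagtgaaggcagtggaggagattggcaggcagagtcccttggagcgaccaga
Pde8b inner window: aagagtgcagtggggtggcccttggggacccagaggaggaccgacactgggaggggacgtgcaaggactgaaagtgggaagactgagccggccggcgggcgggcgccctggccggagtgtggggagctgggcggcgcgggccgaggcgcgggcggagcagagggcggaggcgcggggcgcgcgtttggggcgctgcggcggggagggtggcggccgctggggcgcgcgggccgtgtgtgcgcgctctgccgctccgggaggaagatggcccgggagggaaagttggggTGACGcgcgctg
Pde8a window: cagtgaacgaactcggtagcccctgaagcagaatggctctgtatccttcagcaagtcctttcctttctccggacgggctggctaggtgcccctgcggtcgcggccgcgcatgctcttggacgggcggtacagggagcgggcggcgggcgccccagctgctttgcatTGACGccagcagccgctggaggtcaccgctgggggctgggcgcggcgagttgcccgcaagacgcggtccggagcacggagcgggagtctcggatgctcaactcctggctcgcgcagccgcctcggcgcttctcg
Prkar1a window with the full element: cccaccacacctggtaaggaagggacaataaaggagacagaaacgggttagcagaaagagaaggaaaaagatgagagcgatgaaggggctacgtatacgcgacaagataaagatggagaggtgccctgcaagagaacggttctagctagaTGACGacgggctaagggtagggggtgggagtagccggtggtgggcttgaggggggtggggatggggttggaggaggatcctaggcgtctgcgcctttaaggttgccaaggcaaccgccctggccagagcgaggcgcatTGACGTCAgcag
Rapgef5 upstream window: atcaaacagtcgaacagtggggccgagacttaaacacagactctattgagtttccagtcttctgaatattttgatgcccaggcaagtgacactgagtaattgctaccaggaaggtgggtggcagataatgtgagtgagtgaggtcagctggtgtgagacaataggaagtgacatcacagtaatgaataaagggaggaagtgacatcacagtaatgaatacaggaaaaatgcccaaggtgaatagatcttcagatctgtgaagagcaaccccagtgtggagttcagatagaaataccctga
Rapgef5 inner window: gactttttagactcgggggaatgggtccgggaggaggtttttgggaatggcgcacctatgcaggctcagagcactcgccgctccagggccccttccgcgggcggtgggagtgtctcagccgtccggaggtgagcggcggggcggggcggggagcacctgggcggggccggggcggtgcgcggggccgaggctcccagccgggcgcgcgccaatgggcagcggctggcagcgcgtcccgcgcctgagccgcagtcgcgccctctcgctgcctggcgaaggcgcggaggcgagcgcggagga
The printed Prkar1a window holds the full element, close to its start site, and a separate copy of the short form. Of the other Prkar1a windows 1 overlaps it and holds the same element, 1 holds the short form alone and 3 hold neither. The Pde8a window and the printed inner window of Pde8b each hold 1 copy of the short form. The other 4 windows of Pde8b, among them an inner one that overlaps the printed one, and both windows of Rapgef5 hold neither form. The full element is in 588 of all 32851 mouse windows (1.79%) and in 2 of the 73 member windows, both of Prkar1a. The short form is in 20.8% of all windows and in 16 of the 73 member windows (21.9%), which belong to 14 members. These matches describe letters in the windows and say nothing of whether CREB binds there.

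The tissue and the labels were checked first. Fmr1 (chromosome X) averaged 3.32 ± 0.327 FPKM in female KO and 10.6 ± 0.558 FPKM in female WT libraries, and 3.56 ± 0.187 FPKM in male KO and 11.4 ± 0.527 FPKM in male WT libraries (SD, n = 5 each). The groups did not overlap in either sex (exact two-sided permutation p = 0.0079 in each, the smallest that 252 splits can give), and the mean of KO libraries was 31.2% of that of WT libraries in females and 31.3% in males. The Y-linked gene Ddx3y was at 12.6 to 17.6 FPKM in all male libraries and below 0.03 FPKM in all female ones. The 6 markers of hippocampal excitatory neurons summed to between 614 and 678 FPKM in every library. Some libraries stood apart: Ttr, a choroid plexus gene, passed 500 FPKM in female KO replicates 4 and 5, female WT replicate 4 and male KO replicate 2, and the pituitary hormone gene Prl passed 4 FPKM in female KO replicates 2, 3 and 4. Among female KO libraries replicate 1 alone passed neither limit. Depth is unknown, because FPKM are not counts, and in whole tissue fewer cells of a type cannot be told apart from less RNA per cell.

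Among the cyclases the calmodulin-stimulated Adcy1, which couples calcium entry to cAMP, was the main transcript in hippocampus. It averaged 66.9 FPKM over the 20 libraries, 48.6% of the summed FPKM of the 8 cyclases. Adcy2, which G protein beta-gamma subunits stimulate, averaged 28.9 FPKM (21.1% of the cyclase sum). Adcy5, a cyclase of striatum that Gi and calcium inhibit, averaged 14.4 FPKM, and Adcy9 averaged 12.5 FPKM. Adcy3, the cyclase of neuronal cilia, averaged 7.54 FPKM. Adcy8, the other calmodulin-stimulated cyclase known in hippocampal plasticity, averaged 2.24 FPKM, and Adcy4 was lowest at 0.561 FPKM.

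PKA subunits stood at the top of the set. The regulatory subunit gene Prkar1a averaged 174 FPKM, with every library between 164 and 182 FPKM, and Prkar1b averaged 99.8 FPKM. These type I subunits made up 59.3% and 34.1% of the regulatory subunit FPKM, and the type II genes Prkar2a (11.3 FPKM) and Prkar2b (8.13 FPKM) made up 3.86% and 2.75%. A-kinase anchoring proteins hold type II subunits at synapses and other sites, and some, such as Sphkap, hold type I subunits. The catalytic genes Prkaca and Prkacb averaged 74.4 and 37.3 FPKM. Per length, catalytic transcripts stood at 0.382 of regulatory transcripts, with single libraries between 0.284 and 0.448.

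The Epac gene Rapgef4 (Epac2, the neuronal form) averaged 56.7 FPKM, against 2.68 FPKM for Rapgef3 (Epac1). Of the other RAPGEF genes, Rapgefl1 averaged 30.4 FPKM, Rapgef2 15.1 FPKM, Rapgef5 6.93 FPKM, Rapgef1 6.195 FPKM and Rapgef6 3.61 FPKM.

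Of the 17 enzymes that break down cyclic nucleotides, Pde2a, which cGMP stimulates, and Pde1a, which calcium and calmodulin stimulate, gave the most transcript. They averaged 42.8 and 31.3 FPKM, or 28.9% and 21.1% of the summed FPKM of these enzymes. Pde1b averaged 12.3 FPKM, and Pde10a, a striatal enzyme, 6.07 FPKM. Among the enzymes specific for cAMP, Pde4a averaged 12.1 FPKM, Pde8b 10.8 FPKM, Pde4b 8.05 FPKM, Pde8a 5.80 FPKM, Pde7a 3.59 FPKM, Pde4d 2.33 FPKM and Pde7b 1.37 FPKM. The enzymes specific for cGMP were low, with Pde9a at 4.61 FPKM and Pde5a, the target of sildenafil, at 1.31 FPKM. Pde11a, known in brain mainly from the hippocampus, averaged 2.34 FPKM, and Pde3a and Pde1c were nearest to the lower limit of the rule at 0.644 and 0.539 FPKM.

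**Figure D1:**
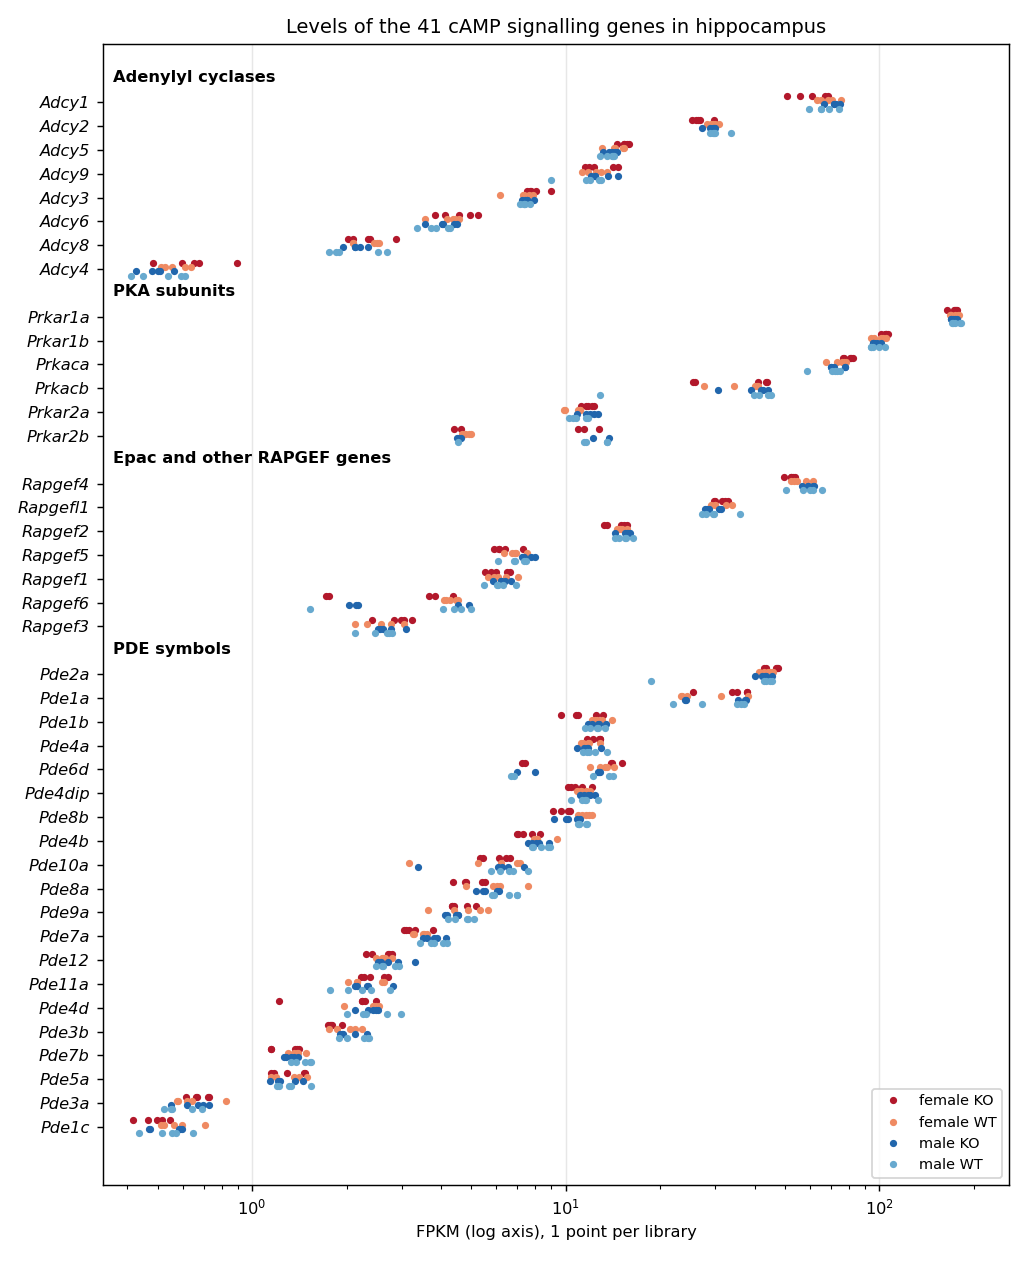
Level of each of the 41 genes in FPKM (log axis), 1 point per library, coloured by group and ordered within each family by the mean over 20 libraries. Prkar1a is highest at 174 FPKM and Pde1c lowest at 0.539 FPKM, and most genes keep their points close together while Prkar2b, Pde6d and Rapgef6 split into separate levels.

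In females, Pde8b, a high-affinity phosphodiesterase specific for cAMP, was the member that fell in Fmr1 KO. It had 10.3, 10.2, 10.3, 9.66 and 9.11 FPKM in female KO libraries, against 11.0, 11.8, 12.1, 11.3 and 11.6 FPKM in female WT libraries. Every KO library was below every WT library. The difference was -0.20 on the log2(FPKM + 1) scale (SE 0.0459, 95% interval -0.30 to -0.11, limma adjusted p = 0.0226 over all 13174 genes tested), a fold of 0.868 in FPKM + 1. Pde8b was 1 of 41 members past the threshold of adjusted p under 0.05 (2.44%), and 3.32% of all genes passed it. The call was lost in a fit of the female libraries alone (adjusted p = 0.0518), without female WT replicate 3 (0.0540) and without female KO replicate 5 (0.0541). It was also lost without the 4 libraries over 500 FPKM of Ttr (difference -0.16, adjusted p = 0.192) and without the 3 over 4 FPKM of Prl, which leaves 2 female KO libraries (-0.23, adjusted p = 0.169). Of those 2, replicate 5 is itself over 500 FPKM of Ttr.

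The next smallest p-values in females belonged to Prkar2a and Adcy2, and neither passed. Prkar2a, the type II regulatory subunit that anchoring proteins hold, had 11.6, 12.3, 12.2, 11.7 and 11.2 FPKM in female KO libraries, against 9.90, 11.1, 11.1, 9.95 and 10.9 FPKM in female WT libraries. All KO libraries were above all WT libraries, and the difference was 0.14 (SE 0.0476, adjusted p = 0.101). Pde8b and Prkar2a were the only members among the 41 whose female groups did not overlap (4.88%, against 5.99% of all genes). Adcy2 averaged 26.9 ± 1.71 FPKM in female KO and 29.5 ± 0.967 FPKM in female WT libraries (SD, n = 5 each), a difference of -0.13 (SE 0.0453, adjusted p = 0.106). Prkar2a passed with the GC trend removed (0.18, adjusted p = 0.0410), and Adcy2 passed without female KO replicate 1 (-0.17, adjusted p = 0.0362). At an unadjusted p under 0.05 there were 8 of 41 members (19.5%), the same share as among all genes (19.5%).

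Pde8a, the paralog of Pde8b, was chosen for display after its values were seen. It had 4.36, 5.51, 5.399, 4.82 and 4.78 FPKM in female KO libraries, against 6.19, 6.02, 5.85, 7.59 and 4.80 FPKM in female WT libraries. The groups overlapped through the lowest WT library, replicate 5, and the difference was -0.24 (SE 0.0829, adjusted p = 0.115). Without that library it was -0.31 with an adjusted p of 0.0482.

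The 41 members as a whole lay near 0 in females. Their median log2 difference was -0.02, with 17 of 41 above 0, beside a median of 0.01 and 52.0% above 0 among all genes. Of the 7 phosphodiesterases specific for cAMP, 1 was above 0 (Pde4a), and their median was -0.13. Their summed level was 39.8 to 43.3 FPKM in female KO libraries and 43.0 to 46.9 FPKM in female WT libraries. This sum holds Pde8b and Pde8a, so it is not separate from their values above. Pde8b averaged 9.92 FPKM in female KO and 11.6 FPKM in female WT libraries, and Pde8a 4.97 and 6.09 FPKM. The 8 enzymes that break down both cyclic nucleotides had 5 above 0 and a median of 0.04. Of the 8 cyclases 5 were above 0 (median 0.06), and of the 6 PKA genes 4 (median 0.08).

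Markers of other cells moved in the same female comparison. All 8 dentate granule cell markers were below 0 (median -0.28, with Tdo2 and Trpc6 past the threshold), and they summed to 75.6 to 99.9 FPKM in female KO libraries and 98.1 to 115 FPKM in female WT libraries. The 8 choroid plexus markers summed to 43.4 to 1531 FPKM in female KO libraries and 12.6 to 914 FPKM in female WT libraries, and 7 of 7 tested were above 0 with none past the threshold. All 7 oligodendrocyte markers were below 0, with Opalin past the threshold. Of 5 meningeal markers 4 were above 0 (median 0.38), with Col1a1 past the threshold (0.54, adjusted p = 0.0051), and all 5 erythrocyte markers were above 0 (median 0.47, none past it). Among the 6 markers of hippocampal excitatory neurons Neurod6 was lower, at 118 ± 2.63 FPKM in female KO and 139 ± 6.97 FPKM in female WT libraries (SD, n = 5 each, -0.23, adjusted p = 0.0019), while the median of the 6 was 0.03. Fibcd1, a marker of CA1, was higher (0.29, adjusted p = 0.0152), with 4 of 6 CA1 markers above 0 (median 0.06). Prkcd, a marker of thalamus, was lower (-0.46, adjusted p = 0.0424), with 3 of 6 thalamic markers above 0 (median 0.01). The part of these cells in the Pde8b difference was not tested.

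In males no member passed, against 0.0455% of all genes. By limma 2 of 41 members had an unadjusted p under 0.05 (4.88%, against 8.69% of all genes). Pde8b again had the smallest p, with 11.1, 10.02, 9.21, 10.9 and 10.2 FPKM in male KO libraries and 11.1, 11.7, 10.9, 11.0 and 11.6 FPKM in male WT libraries. Male KO replicate 1 lay inside the WT range and the other KO libraries below it. The difference was -0.12 (SE 0.0459, 95% interval -0.22 to -0.03, limma adjusted p = 0.433). Prkar2a averaged 11.9 ± 0.701 FPKM in male KO and 11.0 ± 0.665 FPKM in male WT libraries (SD, n = 5 each), with a difference of 0.10 and an adjusted p of 0.559. Pde8a averaged 5.67 ± 0.413 FPKM in male KO and 6.46 ± 0.558 FPKM in male WT libraries, with a difference of -0.16 and an adjusted p of 0.624. All 7 phosphodiesterases specific for cAMP were below 0 in males (median -0.05). Their summed level was 42.3 to 45.2 FPKM in male KO libraries and 44.3 to 48.7 FPKM in male WT libraries. Pde8b and Pde8a are part of this sum too. The median over all 41 members was 0.01, with 23 above 0.

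Markers of other tissue moved in the male comparison too. Of the 6 genes that passed in it, all lower in KO, 3 are skeletal muscle markers, Ckm, Atp2a1 and Myh4. Atp2a1, the calcium pump of fast muscle, averaged 0.0481 ± 0.0207 FPKM in male KO and 0.921 ± 0.297 FPKM in male WT libraries (SD, n = 5 each, -0.86, adjusted p = 1.58e-06). The 4 muscle markers tested summed to 3.003 to 3.64 FPKM in male KO libraries and 5.07 to 8.44 FPKM in male WT libraries. The same 3 genes passed in the mean effect of both sexes and in the difference of KO effects between the sexes, lower in each, and with Acta1 they were higher in male WT than in female WT libraries. All 7 oligodendrocyte markers were below 0 in males (median -0.15, none past the threshold). So were 5 of 6 CA1 markers (median -0.16) and 7 of 8 dentate granule markers (median -0.05). All 7 choroid plexus markers tested (median 0.12) and all 5 meningeal markers (median 0.21) were above 0. All 5 erythrocyte markers (median 0.12) and all 5 of pericytes and smooth muscle (median 0.07) were too. None of these passed the threshold. The part of these tissues in the values of the members was not tested.

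**Figure D2:**
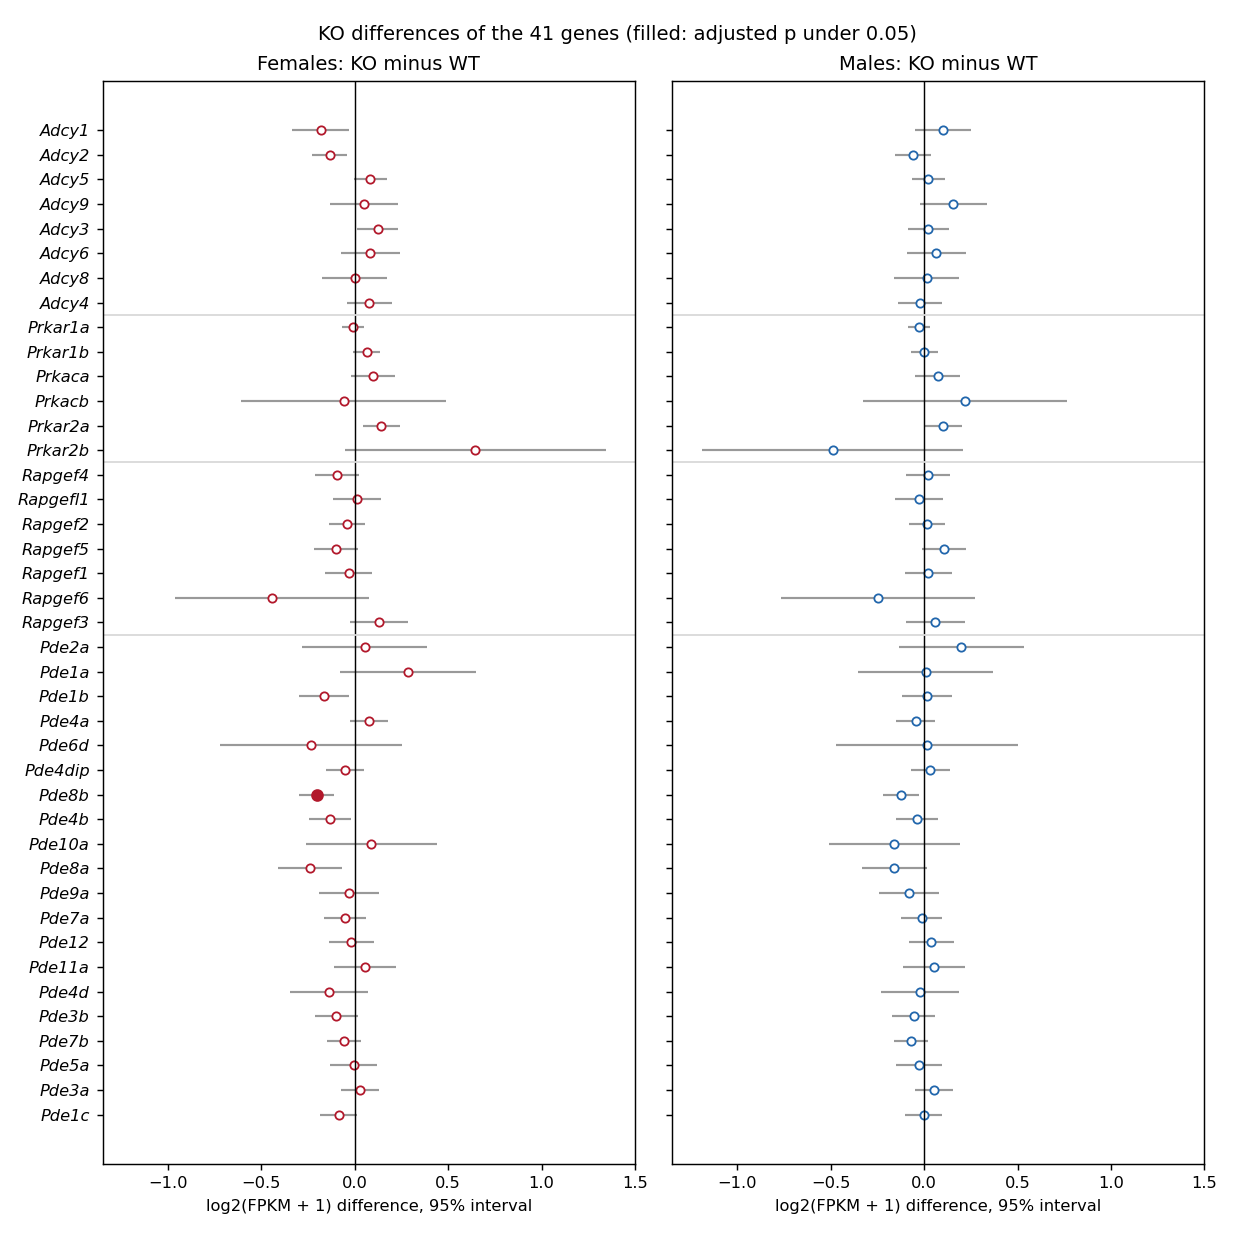
Difference of KO minus WT on the log2(FPKM + 1) scale for the 41 genes in females (left) and males (right), with 95% intervals from limma, ordered as cyclases, PKA subunits, RAPGEF genes and Pde genes. Pde8b at -0.20 in females is the filled point (adjusted p under 0.05), and the intervals of Prkar2b, Prkacb, Rapgef6 and Pde6d are the widest.

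Averaged over both sexes, the KO effect on Pde8b was -0.16 (SE 0.0324, 95% interval -0.23 to -0.10, limma adjusted p = 0.0107). It was 1 of 41 members past the threshold (2.44%), and 3.22% of all genes passed. The mean effect on Prkar2a was 0.12 (SE 0.0336, adjusted p = 0.0521) and that on Pde8a was -0.20 (SE 0.0586, adjusted p = 0.0659). Prkar2a passed in 8 of the 30 alternative fits, among them upper-quartile rescaling (adjusted p = 0.0486), removal of a trend on GC content (0.0171), and leaving out male WT replicate 2 (0.0493), male WT replicate 3 (0.0425) or male KO replicate 5 (0.0356). Pde8a passed without female WT replicate 5 (adjusted p = 0.0257), and Adcy2, at -0.10 with an adjusted p of 0.107, passed without female KO replicate 1 (0.0398). The Pde8b mean effect was lost without the 4 libraries over 500 FPKM of Ttr (-0.14, adjusted p = 0.0757) and without the 3 over 4 FPKM of Prl (-0.18, adjusted p = 0.0604). In this mean effect all 8 dentate granule markers were below 0 (median -0.16, Trpc6 past the threshold). So were all 7 oligodendrocyte markers (median -0.15, Opalin past it) and 7 of 8 striatal markers tested (Penk past it). Neurod6 was lower too, but 5 of 6 excitatory neuron markers were above 0. All 7 choroid plexus markers tested (median 0.40) and 4 of 5 meningeal markers (Col1a1 past it) were above 0. The part of these cells in the Pde8b mean effect was not tested.

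Pde8b (ENSMUSG00000021684.17) spans 95024454 to 95250336 on the minus strand of chromosome 13 in mm10. Of the 12 other tested genes within 1 Mb, 9 were below 0 in the female comparison (48.0% of all genes were) and 6 in the male one (50.8% of all genes). Ap3b1, a subunit of the AP-3 sorting adaptor, passed the threshold in females. No gene on the same strand overlaps Pde8b, and Gm16243 and Gm48420 overlap it on the other strand. No source used here gives the strand setting of the authors' counting, so reads from these overlapping genes cannot be told apart.

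**Figure D3:**
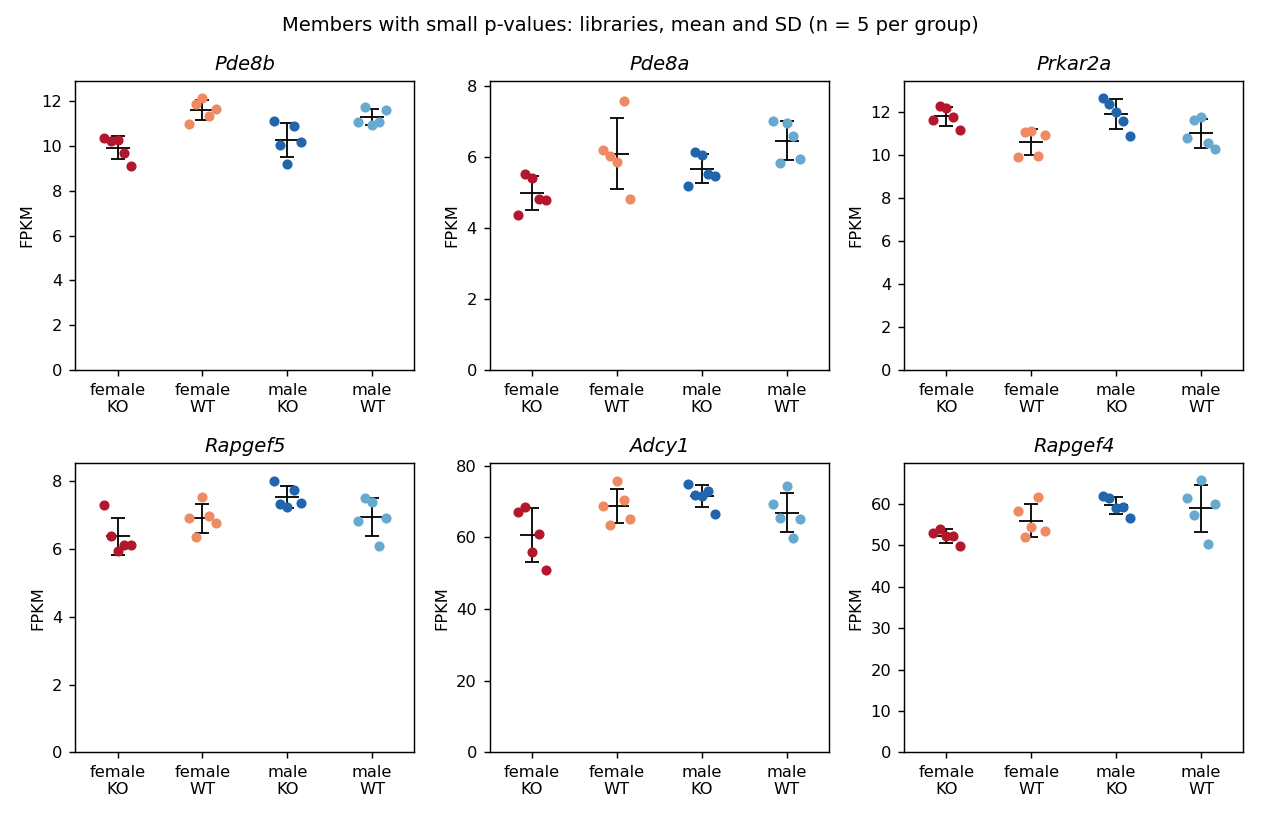
FPKM of 6 genes with small p-values in the 4 groups, 5 libraries each, with the mean and SD as bars. Female KO libraries of Pde8b sit at 9.11 to 10.3 FPKM, below female WT libraries at 11.0 to 12.1 FPKM, and male KO libraries of Rapgef4 sit above all female KO libraries.

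The series title names sex differences, so the KO effects were compared between the sexes. No member had a KO effect that differed between males and females past the threshold, against 0.0455% of all genes. With limma 3 of 41 members had an unadjusted p under 0.05 (7.32%, against 10% of all genes). The KO effect on Adcy1 was 0.10 in males and -0.18 in females, a difference of 0.28 (SE 0.103, 95% interval 0.07 to 0.50, limma adjusted p = 0.389). For Rapgef5 the effects were 0.11 and -0.10, a difference of 0.21 (SE 0.0795, adjusted p = 0.409). For Prkar2b, which takes 2 separate levels described below, the difference was -1.13 (SE 0.472, adjusted p = 0.444).

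Male and female KO libraries were then compared directly, and Rapgef5, an exchange factor that activates Rap and Ras-like GTPases, was higher in males. It had 8.01, 7.31, 7.24, 7.74 and 7.35 FPKM in male KO libraries, against 7.30, 6.39, 5.93, 6.10 and 6.11 FPKM in female KO libraries. Female KO replicate 1 reached into the male range and the other female libraries lay below it. The difference was 0.21 (SE 0.0562, 95% interval 0.10 to 0.33, limma adjusted p = 0.0346), and it was 1 of 41 members past the threshold (2.44%), against 5.38% of all genes. The call was lost without female KO replicate 2, 3, 4 or 5 (adjusted p = 0.0634, 0.0858, 0.0705 and 0.0767), without male KO replicate 1, 2 or 4 (0.0912, 0.0590 and 0.0695), and after removal of a trend on GC content (difference 0.18, adjusted p = 0.132). It was lost too without the libraries high in Ttr (0.19, adjusted p = 0.211) and those high in Prl (0.15, adjusted p = 0.395). Rapgef5 overlaps A930023M06Rik, Gm18955 and Gm24741 on the same strand, so its reads may be shared.

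Adcy1 and Rapgef4 came next. Adcy1 had 74.8, 71.8, 71.5, 73.0 and 66.6 FPKM in male KO libraries, against 67.2, 68.5, 55.8, 60.9 and 50.8 FPKM in female KO libraries, with a difference of 0.24 (SE 0.0726, adjusted p = 0.0568). The groups overlapped, and the spread was wider among female KO libraries. Rapgef4 had 61.9, 61.3, 59.1, 59.3 and 56.7 FPKM in male KO libraries, against 53.1, 53.9, 52.2, 52.3 and 49.7 FPKM in female KO libraries. Every male library was above every female one, and the difference was 0.19 (SE 0.0563, adjusted p = 0.0572). Rapgef4 was the only member of 41 whose groups did not overlap in either direction (2.44%, against 8.02% of all genes). Both passed without male WT replicate 3 (Adcy1 0.0441, Rapgef4 0.0366) and without male WT replicate 4 (0.0461 and 0.0243), libraries that enter this comparison only through the shared estimate of the spread. Adcy1 also passed without female KO replicate 1 (0.0376) or 2 (0.0428), and Rapgef4 without female WT replicate 4 (0.0446) and in a fit of the compared groups (0.0146). Both passed too under upper-quartile rescaling (Adcy1 0.0469, Rapgef4 0.0492), with a filter of 2 FPKM (0.0489 each) and with library weights (0.0462 and 0.0314). Each gene passed in these 7 alternatives and in no other. The limma adjusted p reached 0.129 (Adcy1) and 0.131 (Rapgef4) over single libraries left out. Over the remaining alternatives it reached 0.315 (Adcy1) and 0.270 (Rapgef4). An unadjusted p under 0.05 was reached by 10 of 41 members (24.4%, against 23.3% of all genes).

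Other measures moved in the same comparison. Of the 8 dentate granule markers 7 were above 0 in male KO against female KO, with Prox1, Tdo2 and Dsp past the threshold, and they summed to 91.2 to 97.4 FPKM in male KO libraries and 75.6 to 99.9 FPKM in female KO libraries. Neurod6 was higher in male KO (0.16, adjusted p = 0.0127), but 4 of the 6 hippocampal excitatory neuron markers were below 0 (median -0.04). All 7 choroid plexus markers tested were below 0 (median -0.58), as were all 5 erythrocyte markers (median -0.36) and all 5 markers of pericytes and smooth muscle (median -0.32), with none of these past the threshold. All 5 meningeal markers were below 0 (median -0.40), with Col1a1 and Col1a2 past it. The endothelial marker Cldn5 was lower (-0.35, adjusted p = 0.0334), with 2 of 5 endothelial markers above 0 (median -0.03). The CA1 marker Fibcd1 was lower in male KO, with 2 of 6 CA1 markers above 0 (median -0.12). The thalamic marker Prkcd was higher in male KO, but 5 of the 6 thalamic markers were below 0 (median -0.09). Across 13146 genes the log2 difference of male KO minus female KO had a Pearson r of -0.39 with the GC content of the gene, and across the 41 members also -0.39. Genes share libraries and are not independent, so this is a description. The part of these cells in the differences of Rapgef5, Adcy1 and Rapgef4 was not tested.

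Between male WT and female WT libraries no member passed, against 0.129% of all genes, and by limma 2 of 41 had an unadjusted p under 0.05 (4.88%, against 10.3% of all genes). The smallest p belonged to Prkar2b, at 0.95 (SE 0.334, adjusted p = 0.348). Its male WT libraries take 2 separate levels, while all 5 female WT libraries are at the lower one. Pde7a, a phosphodiesterase specific for cAMP, averaged 3.84 ± 0.289 FPKM in male WT and 3.43 ± 0.158 FPKM in female WT libraries (SD, n = 5 each), a difference of 0.13 with an adjusted p of 0.428. Prkaca averaged 70.1 ± 6.51 FPKM in male WT and 74.4 ± 4.36 FPKM in female WT libraries, a difference of -0.09 with an adjusted p of 0.618. The comparisons of KO with WT and of males with females share groups, so their values are not independent of each other.

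Some members varied widely between libraries of the same group. A gap wider than 40% of the gene's log2 range, with a range over 1, was found in 6 of 41 members (14.6%) and in 447 of all genes (3.39%). This rule was set after the values were seen, so no test is given. Prkar2b, the type II regulatory subunit of neurons, is the clearest case. It had 4.40, 10.9, 11.5, 12.8 and 4.65 FPKM in female KO libraries, against 4.77, 4.99, 4.79, 4.67 and 4.90 FPKM in female WT libraries. In males it had 13.7, 4.58, 4.64, 4.500 and 12.2 FPKM in KO libraries, against 11.4, 13.5, 4.52, 13.6 and 11.6 FPKM in WT libraries. Its 11 low libraries lie at or below 4.99 FPKM and its 9 high ones at or above 10.9 FPKM, with none between, and all 5 female WT libraries are low.

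Pde6d and Rapgef6 showed the same shape with other libraries in the low level. Pde6d had 7.24, 13.99, 7.40, 15.1 and 14.04 FPKM in female KO libraries, against 13.4, 14.2, 11.9, 12.8 and 13.5 FPKM in female WT libraries. In male KO libraries it had 12.6, 12.8, 7.02, 12.9 and 8.001 FPKM, against 6.69, 12.2, 6.85, 13.8 and 14.1 FPKM in male WT libraries. No female WT library was among its 6 low ones. Rapgef6, a Rap exchange factor, had 4.36, 3.66, 1.76, 1.72 and 3.82 FPKM in female KO libraries, against 4.27, 4.10, 4.46, 4.55 and 4.15 FPKM in female WT libraries. In male KO libraries Rapgef6 had 4.93, 2.17, 2.04, 4.52 and 2.15 FPKM, against 4.40, 4.63, 5.003, 1.53 and 4.06 FPKM in male WT libraries. It too had 6 low libraries and none of them in female WT.

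The other 3 rest on 1 or 2 libraries. Prkacb stood at 12.9 FPKM in male WT replicate 4 and at 25.5 to 45.3 FPKM in the other 19 libraries. Pde2a stood at 18.7 FPKM in male WT replicate 1 and at 40.2 to 47.5 FPKM elsewhere. Pde10a stood at 3.17 FPKM in female WT replicate 2 and 3.38 FPKM in male KO replicate 3, and at 5.24 to 7.60 FPKM elsewhere. How reads were split among transcript models of these genes was not tested. The 95% interval of the Pde2a difference ran from -0.28 to 0.39 in females and from -0.14 to 0.53 in males, and both include 0.

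**Figure D4:**
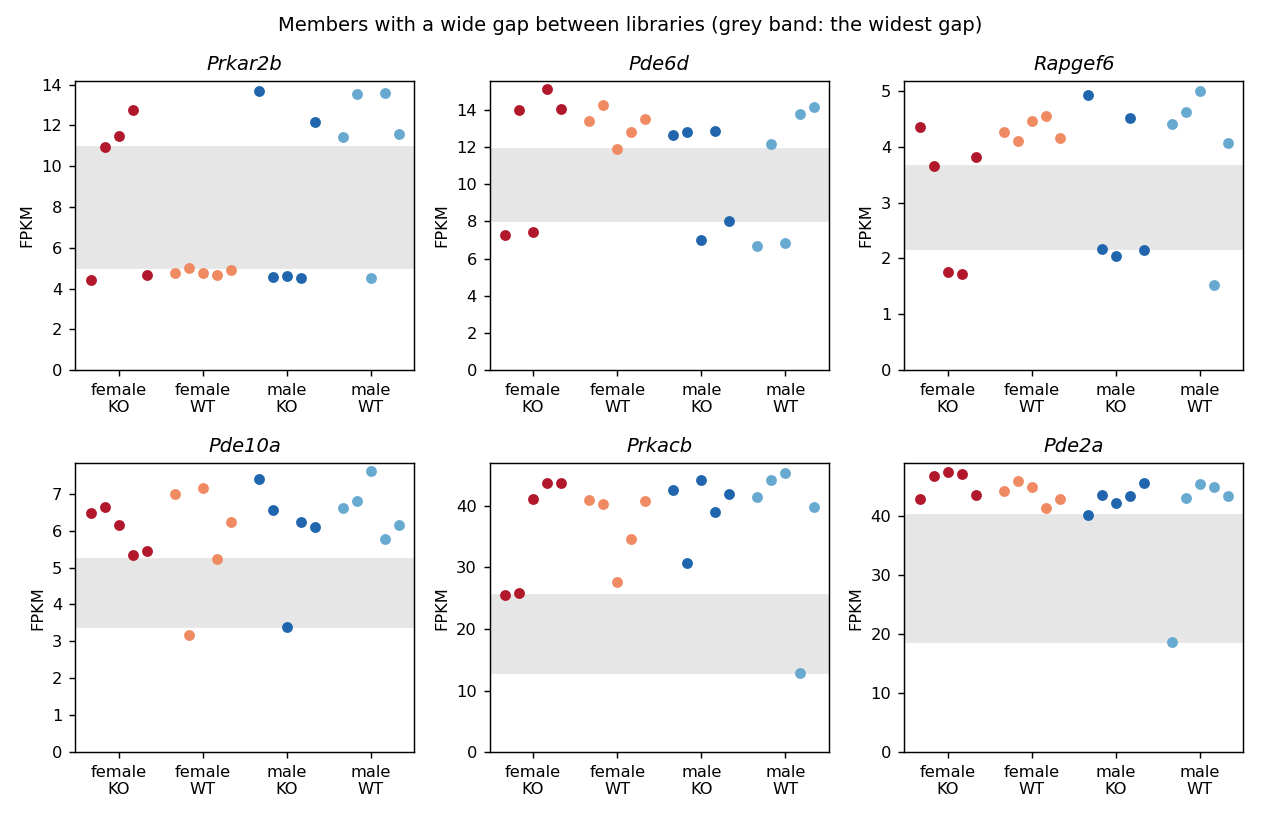
FPKM per library of the 6 genes with a wide gap, with the libraries of each group side by side in the order of their numbers and a grey band over the widest gap. Prkar2b has 11 libraries at or below 4.99 FPKM and 9 at or above 10.9 FPKM, and Pde2a has a single library at 18.7 FPKM.

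Beyond the 41 genes, 146 other genes of the pathway were counted in 10 lists. In females 2 were higher and 4 lower in KO (4.11%, against 3.32% of all genes). Drd1, the Gs-coupled dopamine receptor, averaged 1.23 ± 0.199 FPKM in female KO and 1.77 ± 0.158 FPKM in female WT libraries (SD, n = 5 each, difference -0.32, adjusted p = 0.0232). It was the gene that passed among 14 Gs-coupled receptors, and it is also a striatal marker. The 10 striatal markers summed to 30.4 to 40.1 FPKM in female KO libraries and 34.0 to 41.0 FPKM in female WT libraries. Npy1r, a Gi-coupled receptor of neuropeptide Y, averaged 8.64 ± 0.805 FPKM in female KO and 10.3 ± 0.749 FPKM in female WT libraries (-0.22, adjusted p = 0.0347), the gene that passed among 24 Gi-coupled receptors. Sphkap, an anchoring protein of type I PKA, averaged 28.5 ± 2.24 FPKM in female KO and 32.4 ± 1.97 FPKM in female WT libraries (-0.18, adjusted p = 0.0438), and 14 of 19 A-kinase anchors were below 0 (median -0.06).

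Among 24 CREB target genes 1 rose and 1 fell in female KO. Bdnf, the neurotrophin gene, averaged 9.84 ± 0.557 FPKM in female KO and 12.0 ± 0.749 FPKM in female WT libraries (-0.26, adjusted p = 0.0149). Sst, the interneuron peptide somatostatin, averaged 318 ± 18.8 FPKM in female KO and 268 ± 19.6 FPKM in female WT libraries (0.25, adjusted p = 0.0407). The median of the 24 was 0.13, with 15 above 0. Nos3, the endothelial nitric oxide synthase upstream of cGMP, averaged 2.06 ± 0.463 FPKM in female KO and 1.26 ± 0.191 FPKM in female WT libraries (0.43, adjusted p = 0.0132). The 5 endothelial markers summed to 37.9 to 48.2 FPKM in female KO libraries and 37.1 to 39.1 FPKM in female WT libraries, and their part in the Nos3 difference was not tested. Of these 6 calls, none held in a fit of the female libraries alone or without the 3 libraries high in Prl, and 2 (Drd1 and Npy1r) held without the 4 high in Ttr. After removal of a trend on GC content 3 held (Drd1, Bdnf and Nos3), and Sst was also lost under upper-quartile rescaling (adjusted p = 0.0503). Bdnf and Nos3 kept their calls with each single library left out. Drd1 lost it without female KO replicate 2, 3 or 5 or female WT replicate 3 or 5 (adjusted p up to 0.0602), and Npy1r without female KO replicate 2, 3 or 5 or female WT replicate 1, 2 or 3 (up to 0.0908). Sst lost it without female KO replicate 2, 3, 4 or 5, female WT replicate 3, 4 or 5 or male WT replicate 1 or 5 (up to 0.114). Sphkap lost it without those same libraries or male KO replicate 1, 2, 3 or 5 (up to 0.117). No gene passed among 14 heterotrimeric G protein genes, 5 PKA inhibitors and regulators, 16 CREB family genes and coactivators, 5 other cAMP effectors and 18 PKA substrates and phosphatases.

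In males none of the 146 passed with limma (0.0455% of all genes did). In the mean of both sexes Bdnf (-0.22, adjusted p = 0.0054) and Npy1r (-0.14, adjusted p = 0.0499) were lower, 1.37% of the 146 against 3.22% of all genes. Bdnf lost this call without the libraries high in Prl (adjusted p = 0.0668), and Npy1r lost it in 22 of the 30 alternative fits, with adjusted p up to 0.118. Bdnf averaged 10.7 ± 0.727 FPKM in male KO and 12.2 ± 0.769 FPKM in male WT libraries.

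In male KO against female KO libraries 5 of the 146 were higher and 7 lower (8.22%, against 5.38% of all genes). The higher ones were Gng2, a G protein gamma subunit, Npy1r, Sphkap, Pja2, a ubiquitin ligase that degrades PKA regulatory subunits, and Pkia, a PKA inhibitor. Pja2 averaged 183 ± 3.61 FPKM in male KO and 170 ± 3.89 FPKM in female KO libraries (0.10, adjusted p = 0.0264). Pkia averaged 61.1 ± 2.83 FPKM in male KO and 55.2 ± 1.06 FPKM in female KO libraries (0.14, adjusted p = 0.0213). The lower ones were Gnaz, Adra2c, Bves, Ppp1r1b, Sst, Gadd45g and Nos3, of which Ppp1r1b (DARPP-32, a PKA target of striatum) averaged 8.76 ± 1.33 FPKM in male KO and 12.3 ± 2.32 FPKM in female KO libraries (-0.44, adjusted p = 0.0220). The 10 striatal markers, Ppp1r1b among them, summed to 29.7 to 34.5 FPKM in male KO libraries and 30.4 to 40.1 FPKM in female KO libraries. Of the 12 calls, none held without the libraries high in Ttr or without those high in Prl, and 1 held after removal of a trend on GC content. Leaving out male KO replicate 1, 2 or 4 left 2, 5 and 7 of them, and leaving out female KO replicate 1, 2, 3 or 5 left 7, 6, 3 and 4. None of the 146 passed by limma between male WT and female WT libraries or in the KO effect between sexes.

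**Figure D5:**
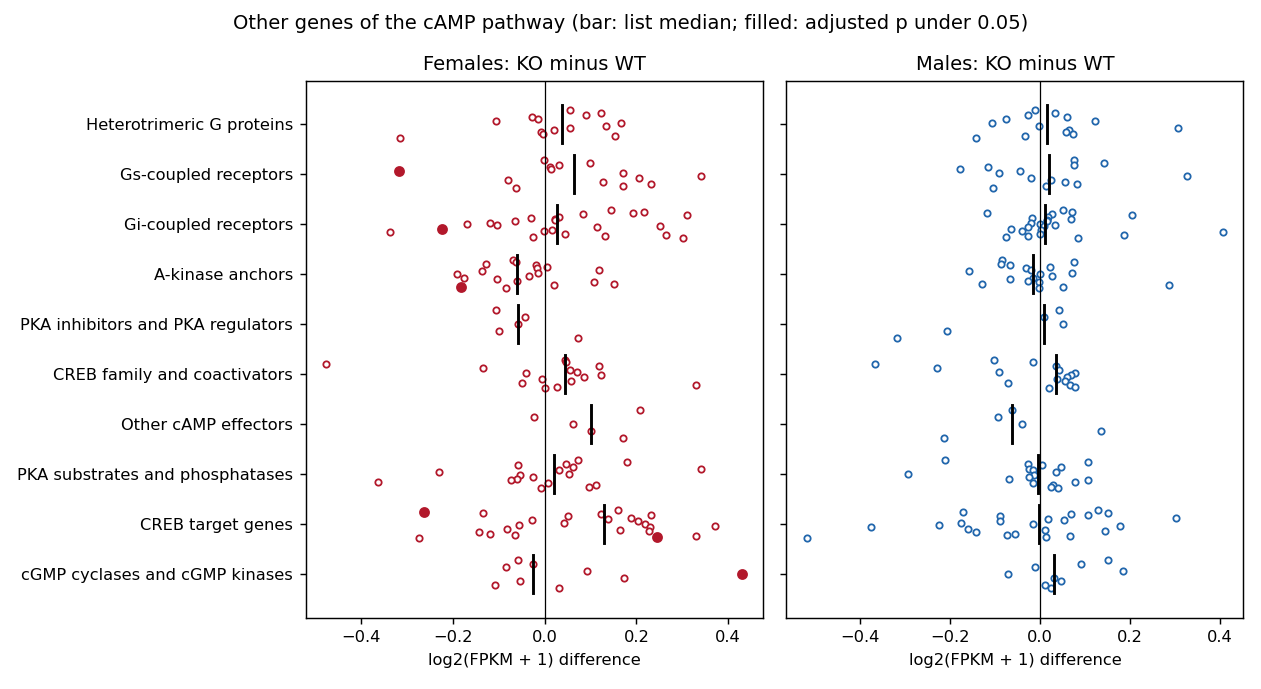
KO minus WT differences on the log2(FPKM + 1) scale for the genes of 10 other cAMP and cGMP lists in females (left) and males (right), 1 point per gene, with the list median as a bar and filled points at adjusted p under 0.05. The 6 filled points in females are Drd1, Npy1r, Sphkap, Bdnf, Sst and Nos3, and males have none.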

How the data were processed

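Hippocampal RNA was sequenced from Fmr1 KO and C57 mice. Per the labels' protocols, RNA was extracted with TRIzol and libraries were made with a SMARTER mRNA-seq kit. The deposited values are FPKM per gene, per the file headers. FastQC, HISAT2, StringTie and the build mm10 are named in the submitters' processing notes, with no versions. Annotation release and strand setting: not given in the sources used here. No 2 libraries held identical values, and any pair had a correlation of 0.977 to 0.990 across genes.

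Groups came from the sample titles. Genes with at least 0.5 FPKM in at least 5 libraries (13174 of 13256) were fitted as log2(FPKM + 1), which understates changes of low genes, with limma 3.58.1 (limma-trend, R 4.3.3) and 1 mean per group over all 20 libraries. P-values were Benjamini-Hochberg adjusted over all 13174 genes, with a threshold of 0.05, and the fit was tested on simulated data. Fmr1 was tested by exact permutation. The replicate numbers are shared between groups, and deviations of samples with the same number had no correlation over 0.1.

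Every member may be named with its level. Differences are given for members past the threshold, or for the 3 smallest p-values where fewer than 3 passed. The members and all lists were chosen with earlier results of these data known. Alternatives were another scaling, other filters, pseudocounts and designs, removal of a GC trend, and leaving out libraries. Of the 41 members, 12 overlap another gene model on the same strand and may share reads. Promoter windows are RefSeq's (GRCm38.p6). GENCODE M21 lists 49 protein-coding symbols that match the rule, of which the other 8 are not analysed here.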

Additional observations from a re-analysis of the deposited data

Results flagged for a closer look

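Each of the 41 genes was examined in each of the 4 groups, 164 groups of 5 libraries, for a library whose gap to the nearest other exceeds 0.71 of the group's range. Chance gives such a library in about 1 group in 20, and 13 were found. In male WT replicate 3, Prkaca was low at 58.8 FPKM (others 70.7 to 75.2), Prkar2b was low at 4.52 FPKM (others 11.4 to 13.6), Adcy2 was high at 33.7 FPKM (others 28.8 to 29.9) and Rapgefl1 was high at 36.0 FPKM (others 27.2 to 29.6). In male WT replicate 4, Prkacb was low at 12.9 FPKM (others 39.7 to 45.3) and Rapgef6 was low at 1.53 FPKM (others 4.06 to 5.003). In male WT replicate 1, Pde2a was low at 18.7 FPKM (others 43.0 to 45.4).

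Among female KO libraries, Pde4d was low at 1.22 FPKM in replicate 2 (others 2.24 to 2.49), Pde3b was high at 1.93 FPKM in replicate 4 (others 1.75 to 1.79) and Prkar1a was low at 164 FPKM in replicate 5 (others 174 to 177). Among female WT libraries, Pde4d was low at 1.97 FPKM in replicate 4 (others 2.43 to 2.55), Pde4b was high at 9.36 FPKM in replicate 1 (others 7.89 to 8.09) and Pde3a was high at 0.826 FPKM in replicate 3 (others 0.578 to 0.645). No male KO library stood apart in this way, and no member passed the test of a KO effect that differs between the sexes.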

How the results depend on the processing

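In females the count of members called moved from 1 to 0 in a fit of the compared groups, without the 4 libraries high in Ttr and without the 3 high in Prl, and to 2 (Pde8b and Prkar2a) with the GC trend removed, and it ran from 0 to 2 over single libraries left out. For the mean effect of both sexes it was 2 under upper-quartile rescaling, a filter of 2 FPKM, library weights, the replicate block and the GC trend removed, 0 without the libraries high in Ttr or in Prl, and 1 to 2 over single libraries left out. For male KO against female KO it was 3 under upper-quartile rescaling and a filter of 2 FPKM, 2 in a fit of the compared groups, 4 with library weights, 0 with the replicate block, the GC trend removed or the libraries high in Ttr or Prl left out, and 0 to 3 over single libraries left out. The cause was not tested. It stayed 0 in every alternative run for the other 3 comparisons. Of 1668 values of single genes under an alternative, none changed sign, 217 lost a call and 29 gained one. These values belong to 54 results, from members with the smallest p-values and pathway genes called in the main fit. That choice favours a kept sign, so the signs say nothing of other genes. The alternatives for the pathway genes outside the 41 were chosen after seeing the data. The Fmr1 difference kept its direction and call throughout. Over 30 pairs of samples with the same number the correlation of deviations was -0.105 to 0.065, none over 0.1. Pairs with different numbers were not measured, so these values give no sign of pairing but cannot exclude it. With the block, Rapgef5 had an adjusted p of 0.0530, Pde8b in females stayed called, and 3 of the 6 pathway calls in females and 7 of the 12 in male KO against female KO held.

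Over all genes, the female count was 438 (237 higher, 201 lower), 472 (202 and 270) under upper-quartile rescaling, 91 in a fit of the compared groups, 240 (104 and 136) with the GC trend removed, 76 without the libraries high in Ttr and 8 without those high in Prl. For male KO against female KO it was 709, and 103, 71 and 23 under the last 3 of these. The female count fell to 208, 180 and 258 without female KO replicate 2, 3 or 5 and to 211, 176 and 217 without female WT replicate 3, 4 or 5, so the share of all genes called, 3.32%, ran from 1.34% to 3.99% over single libraries left out. The count for male KO against female KO fell to 160, 333 and 353 without male KO replicate 1, 2 or 4 and to 357, 253, 447 and 270 without female KO replicate 2, 3, 4 or 5, and its share, 5.38%, ran from 1.21% to 6.57%. For the mean effect of both sexes the count was 424, and 273 without female KO replicate 3 or without male KO replicate 3. The libraries' depth is unknown, which limits what can be said of low members such as Pde1c.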
